A study of Mus musculus with 4 samples.

Results

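This account covers circular RNAs (circRNAs) that come from mouse zinc finger protein genes, the family whose symbols start with Zfp and a number. A circRNA was taken as a member when both of its ends lay on exon boundaries of a protein-coding gene with such a symbol in the GENCODE M21 annotation (GRCm38). The rule found 190 circRNAs, 0.792% of the 23980 in the table, and they came from 65 of the 394 protein-coding genes with such a symbol. Symbol alone placed a gene in the set, and the rule used no measured value. The members and the gene lists below were still chosen with earlier results of these data known.

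The table held back-splice read counts of circRNAs in cerebral tissue of mice with permanent middle cerebral artery occlusion (MCAO), a filament model of ischemic stroke. Tissue was taken at 3 sites 3 h after MCAO: infarct core towards the frontal lobe, infarct core towards the occipital lobe, and the penumbra, the cortex around the core. The remaining library came from cortex at the matching places of sham-operated mice. Each of the 4 tissues had 1 library, and each MCAO library held the mixed RNA of 6 mice before library construction. The sources used here give no strain, sex or age, no number of sham mice and no time after the sham operation. All differences below are therefore between 2 libraries of mixed RNA. They have no replicate check, intervals and p-values cover counting error only, and reads were PCR products without molecular identifiers.

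A circRNA forms when a splice donor joins an acceptor that lies upstream of it, which closes the exons between them into a ring. Zinc finger proteins of the C2H2 kind hold a zinc ion between a pair of cysteines and a pair of histidines, and runs of such fingers read DNA or RNA. Many of them carry a KRAB box, which recruits the corepressor Trim28 and silences chromatin. Circles from several genes of this family are known in mammalian brain, the circle of the second exon of Zfp609 among them.

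The joins that the reads cross are shown for 8 of the most abundant circles, because the join is the only sequence that sets a circle apart from the linear RNA of its gene. Each line gives the last 20 bases before the join in lower case and the first 20 bases after it in capitals, 5′ to 3′ on the gene's strand, from GENCODE M21 transcripts. Positions are on GRCm38.
Zfp148 exons 2 to 4, chr16:33421321-33434974, plus strand: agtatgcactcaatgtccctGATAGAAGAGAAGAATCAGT
Zfp445 exons 4 to 5, chr9:122856699-122857161, minus strand: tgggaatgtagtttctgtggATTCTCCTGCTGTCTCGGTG
Zfp827 exons 6 to 7, chr8:79118175-79120540, plus strand: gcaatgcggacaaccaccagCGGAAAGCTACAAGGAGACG
Zfp827 exons 6 to 8, chr8:79118175-79136663, plus strand: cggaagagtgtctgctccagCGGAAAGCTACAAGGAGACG
Zfp292 exons 2 to 4, chr4:34839332-34839986, minus strand: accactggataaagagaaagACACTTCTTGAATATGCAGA
Zfp644 exons 2 to 5, chr5:106634831-106666845, minus strand: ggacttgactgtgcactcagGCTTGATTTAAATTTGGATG
Zfp644 exons 3 to 5, chr5:106634831-106638635, minus strand: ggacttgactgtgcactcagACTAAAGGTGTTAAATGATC
Zfp326 exons 6 to 11, chr5:105891118-105911508, plus strand: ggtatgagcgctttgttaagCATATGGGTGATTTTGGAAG
The pair from Zfp827 shared the acceptor, so their capitals are the same, and the pair from Zfp644 shared the donor, so their lower-case bases are the same.

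Zfp609 (chr9:65794622-65795495, minus strand) gave a circle of its second exon alone, with a spliced length of 874 nt. This exon holds the start codon of the gene, and the next line shows the join because the reading frame ends there. The in-frame stop codon is in capitals and starts 3 bases after the join.
Zfp609 exon 2, across the join: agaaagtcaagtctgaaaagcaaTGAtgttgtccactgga
The frame that opened at the start codon had 250 codons, 1 of which lay past the join. Translation was not measured.

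Zfp148 exons 6 to 7 (chr16:33466855-33468183, plus strand) made the shortest circle of that gene, 208 nt, and it is printed whole because both of its exons carry finger codons. It held 2 of the 4 fingers found in the host transcript. The 8 codons of their cysteines and histidines are in capitals.
Zfp148 exons 6 to 7, whole circle from the first base of exon 6: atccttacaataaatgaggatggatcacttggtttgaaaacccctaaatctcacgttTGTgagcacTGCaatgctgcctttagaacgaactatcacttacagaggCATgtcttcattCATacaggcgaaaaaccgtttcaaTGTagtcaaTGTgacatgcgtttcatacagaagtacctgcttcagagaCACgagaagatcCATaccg

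The members held 6830 counts over the 4 libraries, 1.68% of all circRNA counts. Most of them were scarce. The median was 6 counts over 4 libraries, 52 members had 2 or 3 counts, 62 had 4 to 9, and 12 had 100 or more. A count of 10 or more was reached by 76 members, 40.0% of them, against 30.3% of all exon-boundary circRNAs of protein-coding genes. A single circle, Zfp532 exons 7 to 8, held 24.5% of all member counts, and 15 circles held 70.1%. All 4 libraries held 78 members, and 18 were seen in only 1. Library totals ran from 83090 to 121393 circRNA counts, so that 3 counts, taken here as the limit that a count of 0 allows, stood for 24.7 to 36.1 CPM, the count scaled to a library total of 1000000.

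Host genes without a KRAB pattern gave most of the circles. The KRAB box was searched in the translated coding sequence by its conserved residues, and 171 of the genes with a Zfp symbol held it. Of these, 17 were hosts (9.94%), with 20 circles and 261 counts, 3.82% of the member counts. Of the 220 genes in which the pattern was not found, 48 were hosts (21.8%), with 170 circles and 6569 counts. The pattern was not found in Zfp445, a protein known to maintain imprinted DNA methylation, so it is counted among the genes without it. A KRAB box that departs from the pattern would be missed, so a gene without the pattern may still have the box. Zfp445 alone held 204 counts in 4 circles, beside 261 counts for all hosts with the pattern, so the split depends on where it is placed. KRAB genes are many close copies of each other, and no source used here says how reads were shared between copies, so the values of KRAB hosts are uncertain.

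Circles from hosts with the KRAB pattern and from hosts in which it was not found mostly held different parts of the gene. A C2H2 finger was taken as 2 cysteines spaced 2 to 4 residues apart, 12 residues, and 2 histidines spaced 3 to 5 apart. Of 177 members on a full coding transcript, 90 (50.8%) held at least 1 whole finger. The share was 1.28% of all exon-boundary circRNAs and 18.9% of those from 10 other zinc finger families (such as Zbtb and Zc3h). The choice of genes sets much of this contrast. The host transcript encoded a finger for 174 of these 177, for 612 of 19238 among all and for 47 of 111 in the other families. Circles with a whole finger numbered 90, 246 and 21 in that order, so the shares lie much closer together on transcripts with fingers. The set of all includes the members and the other families. Its 246 circles with a finger thus hold the 90 and the 21, which draws its share towards theirs. Of the circles from hosts with the pattern, 17 lay on a full coding transcript. None of these 17 held a finger, while 13 of the 17 held the KRAB box. For 15 of the 17, all fingers of the transcript lay in the last exon. So they did for 9 of 160 circles from hosts without the pattern. The leading circle of Zfp445, with no finger, is also counted among the hosts without the pattern. No member included the first exon of its transcript and 1 included the last. That 1 was Zfp109 exon 3 (chr7:24228048-24229840), which held 13 fingers and the stop codon. Its counts were 4 in the frontal core, 9 in the occipital core, 4 in the penumbra and 3 in sham.

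The second exon was a frequent start. It was the first exon of 62 members (34.3%), against 24.1% of all exon-boundary circRNAs, and 51 of 177 members (28.8%) held the host's start codon, against 12.6%. Of these 51 circles, 45 met an in-frame stop codon on the way round and 6 had none. The members' median spliced length was 629 nt, against 543 nt for all, and their median GC content was 48.7%, against 47.6%. The circles share hosts and exons, so these shares are descriptions and were not tested.

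**Figure D1:**
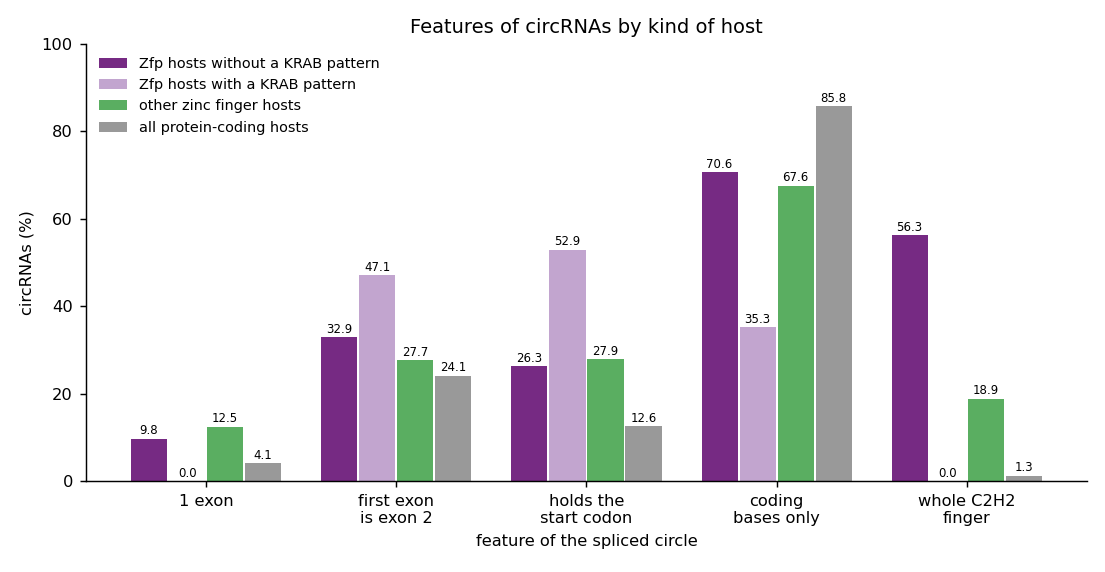
The bars give the share of circRNAs (%, from 0 to 100) with each feature, for Zfp hosts without and with a KRAB pattern, other zinc finger hosts, and all protein-coding hosts. Whole fingers were in 56.3% of the circles of Zfp hosts without the pattern and in 0 of 17 circles of hosts with it, and single-exon circles were 9.76% of the former and 0 of the latter.

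Zfp532, a nuclear protein known to associate with chromatin, was the most abundant host with 1995 counts in 8 circles. Of these circles, 4, with 98.6% of the host's counts, used 1 donor, the end of exon 8 (chr18:65656632). The circle of exons 7 to 8 (chr18:65651560-65656632, 445 nt, 3 fingers) had rank 9 among all circRNAs of the table, with 1676 counts. It had 588 counts in the frontal core, 283 in the occipital core, 363 in the penumbra and 442 in sham, or 4844, 3406, 3768 and 4148 CPM. The frontal core was highest and the occipital core lowest, and their 95% intervals, 4460 to 5252 and 3021 to 3827 CPM, did not overlap. The circle of exons 5 to 8 (231 counts, 6 fingers) had 75, 52, 58 and 46 counts in the same order. Its CPM was 618, 626, 602 and 432, lowest in sham, with all 4 intervals overlapping.

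Zfp148, a transcription factor that binds GC-rich promoters, had 1604 counts in 9 circles. Of them, 4 began at exon 2 and held 77.0% of its counts. The circle of exons 2 to 4 (567 nt) had rank 20 in the table, with 356, 205, 217 and 266 counts in frontal core, occipital core, penumbra and sham. Its levels were 2933, 2467, 2252 and 2496 CPM, highest in the frontal core and lowest in the penumbra. It held the start codon, and the frame had 144 codons, 33 of them past the join. The finger circle of exons 6 to 7 had 81, 57, 72 and 68 counts, or 667, 686, 747 and 638 CPM. Its intervals overlapped in all 4 libraries.

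Zfp609, a partner of the cohesin loader, followed with its single-exon circle. This circle had 105, 70, 56 and 62 counts in the same order, or 865, 842, 581 and 582 CPM. Both cores lay above penumbra and sham, with overlapping intervals. Against sham the ratio was 1.49 (95% interval 1.08 to 2.07) in the frontal core and 1.45 (1.01 to 2.07) in the occipital core, and neither passed the test (Fisher's exact test, Benjamini-Hochberg adjusted p = 0.192 and 0.343).

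Zfp827, which brings a histone deacetylase complex to chromatin, gave 15 circles from 5 acceptors and 5 donors, with 700 counts. Its leading circles, exons 6 to 7 and exons 6 to 8, had 160 and 133 counts. The first had 42, 37, 35 and 46 counts and the second 36, 30, 29 and 38 in frontal core, occipital core, penumbra and sham. All intervals overlapped. Zfp292, a very large protein linked to neural development, gave 1 circle, exons 2 to 4, with 45, 34, 36 and 30 counts. It was lowest in sham at 282 CPM and highest in the occipital core at 409 CPM, again with overlapping intervals.

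**Figure D2:**
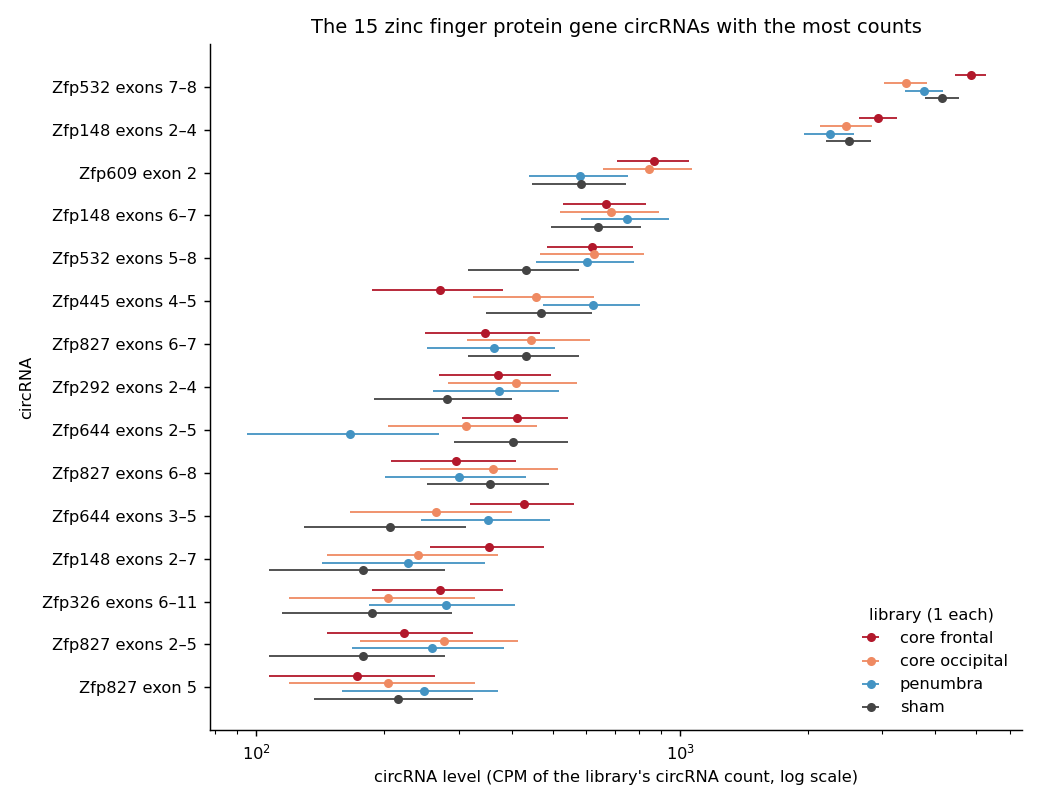
Points give the level of the 15 most abundant members in each of the 4 libraries (CPM of the library's circRNA count, log axis), and lines the exact 95% interval of the count. Zfp532 exons 7 to 8 and Zfp148 exons 2 to 4 stand at 2252 CPM or more in every library, and the other 13 at 865 CPM or less.

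**Figure D3:**
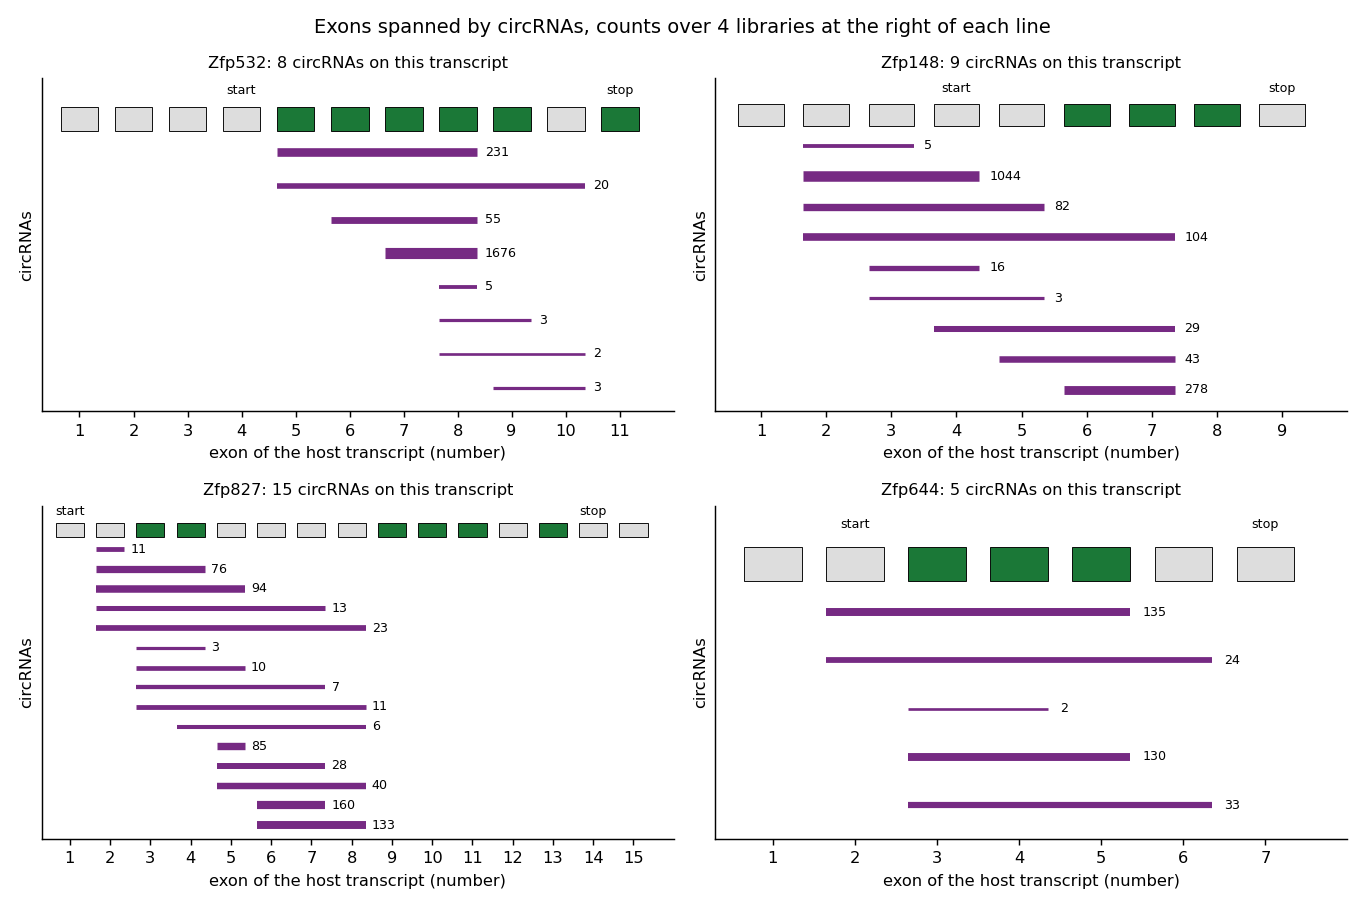
Lines show the exons (numbered along the x axis, equal widths) spanned by each circle of Zfp532, Zfp148, Zfp827 and Zfp644, thicker with more counts, with the counts over 4 libraries at the right. Boxes are exons, green where a finger starts in them, and circles on other transcripts of Zfp644 are not drawn. Circles of Zfp532 pile up on the end of exon 8 and circles of Zfp148 on the start of exon 2.

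The study's title asks whether circRNAs mark the penumbra, and the design implies 6 comparisons among the 4 libraries. A circRNA was called when Fisher's exact test on its counts against the library totals gave a Benjamini-Hochberg adjusted p under 0.05 over all circRNAs with 10 or more counts in the pair, and its CPM ratio was 2 or more in either direction. The 3 comparisons with sham share 1 sham library. In bulk tissue, fewer cells of a type and less RNA per cell cannot be told apart.

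Against sham, no member was called. In the frontal core 0 of 47 tested members were called, against 0.747% of all tested circRNAs. In the occipital core it was 0 of 41, against 0.467%, and in the penumbra 0 of 45, against 0.0538%. At an unadjusted p under 0.05 stood 10, 6 and 3 members, or 21.3%, 14.6% and 6.67%, against 14.2%, 12.6% and 11.3% of all. The edgeR exact test, with a coefficient of variation of 0.2 assumed, called 0 as well, with 3, 2 and 1 members at an unadjusted p under 0.05.

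By size alone, 7 of the 47 tested members were past 2-fold in the frontal core against sham (14.9%, against 26.5% of all tested circRNAs). Of these, 6 were on the higher side (background 15.1%) and 1 on the lower (11.4%). In the occipital core 6 of 41 were on the higher side (background 11.3%) and 2 on the lower (13.1%), together 19.5%, against 24.4% of all. In the penumbra 9 of 45 were on the higher side (background 11.1%) and 2 on the lower (12.7%), together 24.4%, against 23.8% of all. The members' shares were below the background in the cores and near it in the penumbra. The median log2 ratio to sham was 0.23, 0.17 and 0.23 over the tested members, and 0.03, −0.06 and 0.01 over all tested circRNAs. Over the tested circles of the other zinc finger families it was 0.42, 0.36 and 0.39, so a median above that of all was not particular to the members.

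Summed over all members, the frontal core held 2207 counts, 1.82% of its library (95% interval 1.74% to 1.89%), and sham 1670 counts, 1.57% (1.49% to 1.64%). The occipital core held 1378 counts (1.66%) and the penumbra 1575 (1.63%). The ratio of these shares to sham was 1.16 (1.09 to 1.24) in the frontal core, 1.06 (0.985 to 1.14) in the occipital core and 1.04 (0.973 to 1.12) in the penumbra. Without the most abundant circle the 3 ratios were 1.16 (1.07 to 1.25), 1.14 (1.05 to 1.24) and 1.09 (1.01 to 1.18). With TMM library sizes the occipital ratio of all members lay on the other side of 1, at 0.979. For the other zinc finger families the summed ratios to sham were 1.11 (0.961 to 1.29), 1.20 (1.02 to 1.40) and 1.07 (0.912 to 1.25) in the same order.

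Among the members past 2-fold against sham, Zfp516 exon 2 had intervals clear of 1 in both cores. Zfp516 is a transcription factor of brown fat that works with a histone demethylase, and this circle (chr18:82955524-82957449) held 8 of its 10 fingers. It had 17 counts in the frontal core, 15 in the occipital core, 8 in the penumbra and 3 in sham. The counts were lowest in sham, where 3 reads carry the comparison. The ratio to sham was 4.97 (1.44 to 26.5) in the frontal core, 6.41 (1.81 to 34.6) in the occipital core and 2.95 (0.708 to 17.3) in the penumbra. None passed Fisher's exact test after Benjamini-Hochberg adjustment (p = 0.131, 0.0731 and 0.559). The frontal core ratios of Zfp638 exons 3 to 21 and Zfp407 exons 2 to 4 were larger, 7.90 (1.09 to 346) each, but both rested on 9 counts against 1.

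Zfp385b, a p53-linked zinc finger protein, gave a circle of exons 2 to 3 (chr2:77719451-77720699). It had 20, 14, 15 and 7 counts in frontal core, occipital core, penumbra and sham, lowest in sham. Its ratios to sham were 2.51, 2.56 and 2.37, with adjusted p = 0.295, 0.380 and 0.452 by Fisher's exact test. Zfp407 exons 2 to 3 (chr18:84552870-84563046, 17 fingers) had 14, 10, 11 and 5 counts, with ratios of 2.46, 2.56 and 2.43. These 2 circles and Zfp516 exon 2 were over 2-fold in all 3 tissues, each against the same low sham count; they were picked out after the values were seen.

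Zfp644, which carries the histone methyltransferases G9a and Glp to DNA, had 2 leading circles that shared a donor. Both held all 8 fingers of the transcript, and the longer one added exon 2 with the start codon (3600 nt against 3539 nt; a frame of 1197 codons). Exons 2 to 5 had 50, 26, 16 and 43 counts, lowest in the penumbra. Exons 3 to 5 had 52, 22, 34 and 22 counts, highest in the frontal core. The penumbra ratio to sham of the first was 0.412 (0.216 to 0.746; adjusted p = 0.141, Fisher's exact test), and the frontal core ratio to sham of the second was 2.07 (1.24 to 3.59; adjusted p = 0.102).

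As a share of the host's circle counts, Zfp644 exons 2 to 5 made up 37.0% in the frontal core, 38.8% in the occipital core, 22.9% in the penumbra and 44.8% in sham. Exons 3 to 5 made up 38.5%, 32.8%, 48.6% and 22.9%. The order of the 2 circles was thus turned round between penumbra and sham. The exact 95% intervals of the penumbra (13.7% to 34.4%) and sham (34.6% to 55.3%) did not overlap for the longer circle, nor did those for the shorter one. The hosts for these shares were chosen after the values were seen, and the difference was not tested.

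Zfp638, a protein that binds RNA and silences foreign DNA, gave the most circles of any host, 16 with 235 counts. Exon 2 (chr6:83928653-83930165) had 13, 6, 8 and 18 counts, and exons 11 to 13 (chr6:83954711-83957592) had 20, 17, 29 and 15. The first was highest in sham and the second in the penumbra. Their shares of the host's counts were 15.3%, 16.7%, 12.7% and 35.3% for exon 2, and 23.5%, 47.2%, 46.0% and 29.4% for exons 11 to 13. The penumbra ratio to sham was 0.491 (0.185 to 1.19) for exon 2 and 2.14 (1.11 to 4.29; adjusted p = 0.307, Fisher's exact test) for exons 11 to 13.

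**Figure D4:**
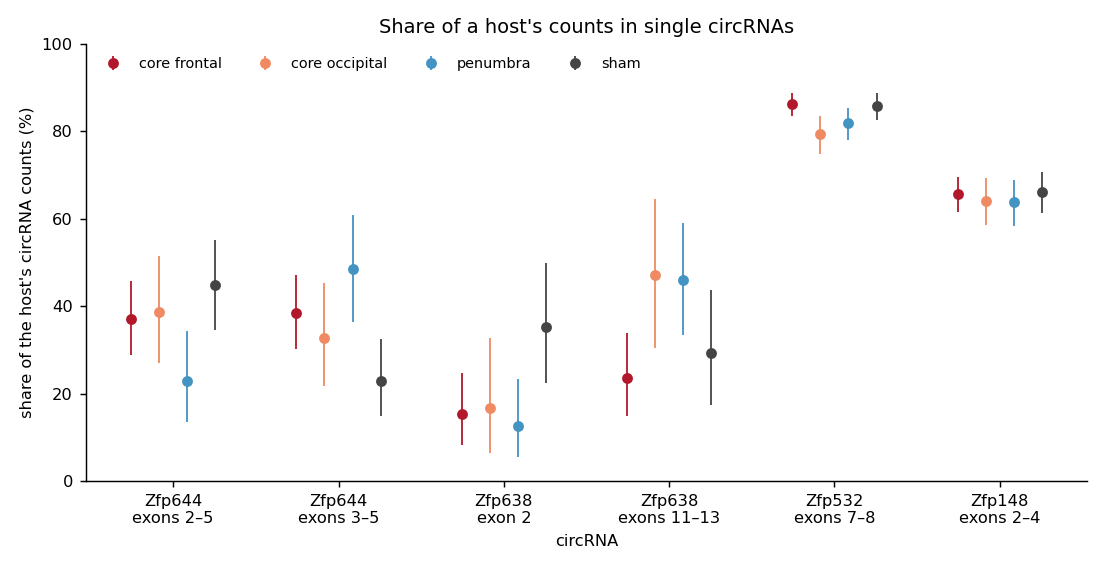
Points give the share (%) that a circle made of its host's circRNA counts in each library, and lines the exact 95% interval. The circles of Zfp644 and Zfp638 range between 12.7% and 48.6%, while Zfp532 exons 7 to 8 stay between 79.5% and 86.3% and Zfp148 exons 2 to 4 between 63.8% and 66.2%.

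Between penumbra and frontal core, 1 of 49 tested members was called, higher in the penumbra, against 0.934% of all tested circRNAs in either direction and 0.53% with the higher level in the penumbra. This was Zfp445 exons 4 to 5, a circle of 186 nt with no finger. It had 33 counts in the frontal core, 38 in the occipital core, 60 in the penumbra and 50 in sham, or 272, 457, 623 and 469 CPM. The frontal core stood lowest, and the penumbra interval (475 to 802 CPM) lay above that of the frontal core (187 to 382 CPM). The ratio of penumbra to frontal core was 2.29 (1.47 to 3.62; adjusted p = 0.0216, Fisher's exact test with Benjamini-Hochberg adjustment). Penumbra to sham was 1.33 (0.897 to 1.97), and frontal core to sham 0.579 (0.362 to 0.917; adjusted p = 0.201), neither of which passed. The call was lost with no count minimum (adjusted p = 0.117), with the edgeR exact test (adjusted p = 0.705), and with the edgeR quasi-likelihood test that takes both cores as 1 group (adjusted p = 0.997).

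In the same comparison Zfp532 exons 7 to 8 fell to 0.778 (0.681 to 0.888) of the frontal core level in the penumbra, with an adjusted p = 0.0263 by Fisher's exact test, under the 2-fold limit. By the edgeR exact test the lowest adjusted p of any member here was 0.673. Zfp644 exons 2 to 5 stood at 0.403 (0.214 to 0.720; adjusted p = 0.0700). Past 2-fold were 6 members with the higher level in the penumbra (background 11.5%) and 6 with the lower (12.9%), 24.5% of those tested, against 24.4% of all. At an unadjusted p under 0.05 stood 10 members (20.4%, against 12.8% of all), and 4 by the edgeR exact test. Zfp652 exons 2 to 5 (chr11:95749000-95754055, 6 fingers), from a transcriptional repressor, had 12 counts in the penumbra and 3 in the frontal core, and Zfp827 exons 2 to 8 had 9 and 1. Their adjusted p of 0.148 did not pass (Fisher's exact test). The summed member ratio was 0.899 (0.842 to 0.960), and 0.943 without the most abundant circle.

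Between penumbra and occipital core, 0 of 41 members were called, against 0.0606% of all. Past 2-fold were 2 with the higher level in the penumbra (background 11.5%) and 2 with the lower (8.91%), 9.76% of those tested, against 20.4% of all. Zfp704 exons 3 to 4 (chr3:9470892-9474602) had the smallest p among them, with 17 counts in the penumbra, 5 in the occipital core, 13 in the frontal core and 16 in sham. Its ratio was 2.93 (1.04 to 10.2; adjusted p = 0.633, Fisher's exact test), and the occipital core alone was low. At an unadjusted p under 0.05 stood 3 members (7.32%, against 7.03% of all), and 0 by the edgeR exact test.

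Between the 2 cores, 0 of 48 members were called, against 0.344% of all, and 5 had an unadjusted p under 0.05 (10.4%, against 11.8% of all), 2 by the edgeR exact test. Zfp532 exons 7 to 8 was higher in the frontal core by 1.42 (1.23 to 1.64; adjusted p = 0.00204, Fisher's exact test), which is under the 2-fold limit. By the edgeR exact test the lowest adjusted p of any member between the cores was 0.634. Past 2-fold were 3 members with the higher level in the frontal core (background 14.8%) and 5 with the lower (10.8%), 16.7% of those tested, against 25.6% of all. Zfp827 exons 2 to 8 had 1 count in the frontal core, 10 in the occipital core, 9 in the penumbra and 3 in sham, a ratio of 0.0684 (0.00158 to 0.481) between the cores with an adjusted p = 0.0715. The frontal core count of 1 decides that ratio. The summed member ratio of frontal to occipital core was 1.10 (1.02 to 1.17), and 1.01 without Zfp532 exons 7 to 8.

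**Figure D5:**
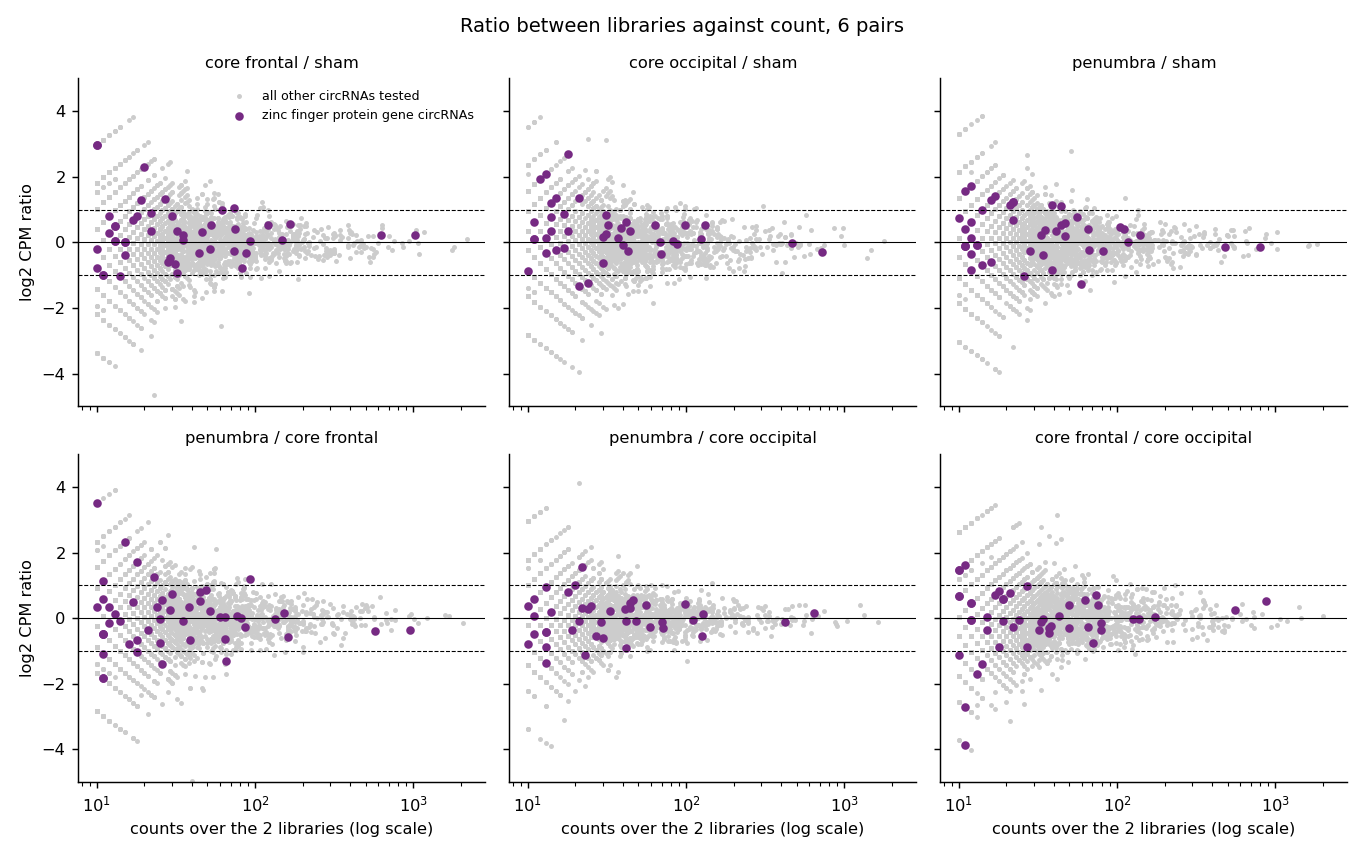
Each panel plots the log2 CPM ratio of a pair of libraries against the counts over both (log axis), with members in purple and all other tested circRNAs in grey; dashed lines mark 2-fold. Members past the lines had mostly low counts, and Zfp445 exons 4 to 5, with 93 counts, is the called one in the panel of penumbra against frontal core.

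By role, the 9 genes listed as partners of chromatin complexes held 50.2% of the member counts. Hosts were 6 of them (Zfp532, Zfp827, Zfp644, Zfp609, Zfp516 and Zfp592), with 42 circles, while Zfp518a, Zfp518b and Zfp687 gave none. Their summed level was 9251, 8220, 8023 and 7977 CPM in frontal core, occipital core, penumbra and sham. Of its circles 17 to 19 were tested in a comparison and 0 were called, against 0.0538% to 0.934% of all, so the 0 is near the background here and in the lists that follow. Its median log2 ratio to sham was 0.22, 0.36 and 0.00 in frontal core, occipital core and penumbra.

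Of the 11 genes listed for RNA decay and RNA binding, 6 were hosts (Zfp106, Zfp207, Zfp326, Zfp346, Zfp385b and Zfp638), with 30 circles and 450 counts. The mRNA decay factors Zfp36, Zfp36l1 and Zfp36l2, which bind AU-rich elements, gave no circle, nor did Zfp385a. The ubiquitin ligases listed, Zfp91 and the collided-ribosome ligase Zfp598, gave none either. The leading circle was Zfp326 exons 6 to 11, from a protein that links splicing to elongation, with 33, 17, 27 and 20 counts. The list's summed level was 1335, 927, 1204 and 892 CPM, and 0 of the 4 to 8 circles tested in a comparison were called. The 95% intervals of the frontal core (1137 to 1557 CPM) and sham (721 to 1090 CPM) did not overlap. This was not particular to the list. The same intervals were apart for the chromatin partners (8718 to 9808 and 7450 to 8532 CPM). They were also apart for the further transcription factors below (4326 to 5106 and 3511 to 4268 CPM).

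Of 9 genes listed for neural development, 7 were hosts (Zfp292, Zfp365, Zfp423, Zfp462, Zfp521, Zfp536 and Zfp608), with 20 circles and 334 counts. Their summed level was 766, 903, 810 and 826 CPM, with overlapping intervals. Of the 3 or 4 circles tested in a comparison, 0 were called and 0 passed 2-fold, where 20.4% to 26.5% of all did; so few circles give no reading of the list. Zfp536, which holds back neuronal differentiation, gave 6 circles and 31, 23, 23 and 33 counts. The circles with the most fingers were here and rare: Zfp462 exons 2 to 7 held 28 fingers and had 2 counts.

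Of 5 further transcription factors listed as lacking a KRAB box, 3 were hosts (Zfp148, Zfp131 and Zfp407), with 16 circles and 1690 counts, 24.7% of the member counts, and Zfp281 and Zfp384 gave none. Their summed level was 4704, 4152, 3747 and 3876 CPM, and 0 of the 7 to 9 circles tested in a comparison were called. Zfp148 alone held 1604 of these counts.

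Hosts with the KRAB pattern were led by Zfp426, with 85 counts in 3 circles, followed by Zfp606, Zfp26, Zfp7 and Zfp65. The Zfp426 circle of exons 5 to 7 (chr9:20473028-20476478, 291 nt) had 19, 14, 19 and 16 counts and held the KRAB box. Its intervals overlapped in all 4 libraries. Zfp606 exons 5 to 6 (chr7:12489570-12490044) had 5, 9, 13 and 9 counts, and its ratio of penumbra to frontal core was 3.28 (1.10 to 11.7; unadjusted p = 0.0296, adjusted p = 0.295, Fisher's exact test). KRAB circles summed to 601, 662, 716 and 601 CPM, with overlapping intervals, and 0 of the 3 to 6 circles tested in a comparison were called. The circles of Zfp7 and Zfp82 also lay on exon boundaries of an overlapping gene model each, and the table gives no strand.

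Summed by host, no Zfp gene was called in any of the 6 comparisons. The tested hosts numbered 28 or 29, against 0.539%, 1.16% and 0.0868% of all hosts called in frontal core, occipital core and penumbra against sham, 0.546% in penumbra against frontal core, 0.0919% in penumbra against occipital core and 0.392% between the cores. The Zfp532 sum was higher in the frontal than in the occipital core by 1.31 (1.15 to 1.49; adjusted p = 0.0106, Fisher's exact test, 681 and 356 counts), under the 2-fold limit. The Zfp148 sum in the penumbra was 0.790 (0.688 to 0.907; adjusted p = 0.0591) of that in the frontal core. For Zfp827 the ratio to sham was 0.941 in the frontal core, 1.27 in the occipital core and 1.27 in the penumbra, and the intervals of the last 2 (1.02 to 1.59 and 1.03 to 1.58) lay above 1 without passing the adjusted test (adjusted p = 0.322 and 0.365, Fisher's exact test).

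As a check of the tissue, circRNAs of all 7 neuronal marker genes listed were present, summing to between 13897 and 15537 CPM in the 4 libraries. Circles of astrocyte markers came from 1 of 5 genes (60.2 to 125 CPM; Slc1a3, Aqp4, Gfap and Gja1 were at 0), those of endothelial markers from 1 of 5 (0 to 1 count a library; Flt1, Cldn5, Kdr and Cdh5 at 0), and none came from the 5 oligodendrocyte or the 5 microglial genes. These genes differ in how readily they form circles, so the values do not give cell shares. The number of members detected was 146, 138, 132 and 137 in frontal core, occipital core, penumbra and sham; thinned to the smallest library it was 132, 138, 126 and 127.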

How the data were processed

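The authors deposited a table of back-splice read counts per circRNA, named by coordinates, with the genomic span and FPKM values for 4 libraries. The FPKM values, per the file headers, equal the deposited count divided by span and library total, and were not tested. RNA was extracted with Trizol after perfusion and depleted of ribosomal RNA; per the labels' protocols both a TruSeq and a directional NEBNext kit are named. Per the submitters' processing notes, TopHat2 2.0.10, Bowtie and mm9 were used, but 89.1% of starts and 89.7% of ends fall on GRCm38 exon boundaries, against 0.192% of starts when shifted by 1 base, so GRCm38 was used. The circRNA caller was not given in the sources used here, nor were filters; the lowest sum in the table is 2 counts.

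Counts were scaled to CPM of each library's circRNA total. Pairs were tested with Fisher's exact test (SciPy 1.17.1) over all circRNAs with 10 or more counts in the pair, with Benjamini-Hochberg adjustment. Ratio intervals are exact conditional 95% intervals, those of shares are Clopper-Pearson and those of CPM exact Poisson. The test was checked on simulated data. Alternatives used edgeR 4.0.16 and DESeq2 1.42.0 factors. Pairs rescaled by these factors or for the GC trend were tested with an exact binomial test in place of Fisher's. The exon numbers are those of the transcript that holds both ends (181 of 190 members). Named circles were the 15 with the most counts, called ones, the 3 with the smallest p per direction and pair past 2-fold, leading hosts and listed genes. The members and lists were chosen with earlier results of these data known.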

Additional observations from a re-analysis of the deposited data

Results flagged for a closer look

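Zfp532 exons 7 to 8 differed between the 2 infarct cores when each was set against the same sham library: 588 counts in the frontal core and 283 in the occipital core, a direct CPM ratio of 1.42 (95% interval 1.23 to 1.64; adjusted p = 0.00204, Fisher's exact test). Its ratio to sham was 1.17 (1.03 to 1.32; adjusted p = 0.192) in the frontal core and 0.821 (0.705 to 0.955; adjusted p = 0.208) in the occipital core. The ratio between the cores was 1.51 with TMM library sizes, 1.45 with DESeq2 size factors and 1.33 with the GC trend removed. With the edgeR exact test, at the assumed coefficient of variation of 0.2, the difference did not pass. The lowest adjusted p of any member between the cores was then 0.634. With 1 library of mixed RNA per core, the difference between mice is unknown.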

How the results depend on the processing

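Of 185 recomputed values, 156 stayed within the limits set for them and 29 moved; the cause was not tested unless named. Members past 2-fold follow in the order frontal core, occipital core and penumbra against sham, penumbra against frontal and occipital core, frontal against occipital core. As reported they numbered 7, 8, 11, 12, 4 and 8, of 47, 41, 45, 49, 41 and 48 tested. With no count minimum they numbered 58, 65, 67, 61, 65 and 66, since circles under 10 counts entered. With 30 or more counts they numbered 1, 0, 3, 2, 0 and 0, of 22, 21, 21, 21, 19 and 21 tested. The share past 2-fold was then smaller in every pair. Members called between penumbra and frontal core numbered 1 as reported, 0 with no count minimum, 2 with 30 or more counts (Zfp644 exons 2 to 5 added, adjusted p = 0.0357, Fisher's exact test), and 0 with each of the edgeR exact and quasi-likelihood tests. The median log2 ratio with no count minimum was 0.0343 (frontal core to sham), 0.36 (occipital core to sham), 0.23 (penumbra to frontal core), −0.21 (penumbra to occipital core) and −0.24 (frontal to occipital core). With TMM it was 0.0537 for occipital core to sham and 0.0687 for penumbra to occipital core, where TMM shifted all ratios by −0.11 and 0.12; with the GC trend removed it was 0.29 for occipital core to sham. With members that had 1 end on a boundary or lay inside a host, it was 0.0756 for penumbra to sham. The summed ratio crossed 1 with TMM, at 0.979 for occipital core to sham and 1.07 for penumbra to occipital core; without the most abundant circle it was 1.14 for occipital core to sham and 1.01 for frontal to occipital core. With TMM, Zfp532 exons 7 to 8 passed adjusted p 0.05 in the occipital core against sham (0.760, adjusted p = 0.0351, exact binomial test), under the 2-fold limit. No paired analysis was possible because each group had 1 library. At these depths a count of 0 allows up to 3 counts, 24.7 to 36.1 CPM by library.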
